A study of Rattus norvegicus with 10 samples.

Results

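Macrophage and other myeloid genes were examined in pancreatic islets of rats after 10 days of fat-rich food. The set was a list of 38 gene symbols, and each gene was read from the probeset with that 1 symbol and the highest mean over the 10 arrays. Of these, 36 had such a probeset, out of 14217 genes with 1 symbol on the array. Msr1, a scavenger receptor, and Spi1, which encodes the transcription factor PU.1, had no probeset under those symbols and are not analysed here. A filter on low signals was passed by 27 of the 36, out of 10300 genes. The series holds 5 islet samples from male Wistar rats given a cafeteria diet for 10 days, with 66% of calories as fat. They were set against 5 islet samples from male Wistar rats given standard chow for 10 days, with 8% of calories as fat. All rats were 7 weeks old, and each sample is labelled as 1 biological replicate; whether islets of several rats were pooled is not given in the sources used here. The labels describe no transgene or drug. Groups follow the sample titles, and the diet characteristic of every sample names the opposite diet. If that field were right, every sign given here would turn.

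Islets are clusters of hormone cells, and they hold a small population of resident macrophages. Such cells depend on signalling through the receptor encoded by Csf1r, take up debris, and display Fc receptors, complement proteins and integrins. Many genes used to mark them are also active in other white blood cells: Cd53, Lcp1, Itgb2, Laptm5 and Ptpn6 are expressed in lymphocytes as well, Fcgr2b and Lyn in B cells, and Lcp2 in T cells. Neutrophils carry S100a8 and S100a9 in bulk. In whole islets, fewer cells of a type and less RNA per cell cannot be told apart.

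Each array gives MAS5 signals on a linear scale, scaled by the authors to a common trimmed mean, with median signals of 150.9 to 173.2. Differences are on the scale log2(signal + 14.2), cafeteria minus standard. They understate the change of dim probesets, because the added constant damps it. Beta cell markers were present throughout, with list means of 13.41 to 13.79 in cafeteria arrays and 13.44 to 13.57 in standard arrays (log2). RNA quality was read from the ratio of 3 prime to 5 prime control probesets, which is higher in degraded RNA. For GAPDH it was 1.01 ± 0.06 in cafeteria islets and 1.16 ± 0.10 in standard islets (SD, n = 5 each, exact two-sided permutation p = 0.0238, adjusted over 2 ratios p = 0.0476). Its p was 0.0635 without standard replicate 1, 3 or 4 and 0.0556 without standard replicate 5, by the same exact permutation test. The beta-actin ratio was 2.65 ± 0.31 in cafeteria islets and 2.81 ± 0.26 in standard islets (exact permutation p = 0.405).

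No myeloid gene passed the test between the diets after adjustment. Of the 36 genes, 27 had a lower mean log2 signal in cafeteria islets and 9 a higher one, and the median difference was −0.085. Over all 14217 genes, 51% were lower and the median difference was −0.004. With limma, 0 of the 27 tested members had an adjusted p under 0.05 (lowest 0.412, highest 0.999). Over all probesets it was 0 of 18625 (0%, while 1941 had an unadjusted p under 0.05). At an unadjusted p under 0.05, 1 tested member was lower, the integrin gene Itgb2, against 5.26% of genes tested, and 0 were higher, against 5.02%. The count was thus no larger than that of genes at large. In 0 of the 36 genes did the 2 groups of arrays fail to overlap, compared with 1.36% of all genes that lay wholly lower in cafeteria islets. The list and its members were chosen with earlier results of these arrays known, so the count of lower members is a description. Signals in every array are given for 1 or more main genes of each class, set by rule, and for Itgb2; those of Lyz2, C1qb, C1qc, Ctss, Fcgr2b, Cd53, Lcp1 and Laptm5 are added and were chosen after their values were seen.

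Single arrays decided how many members fell below the unadjusted threshold. Without cafeteria replicate 3 the count of lower members was 5 (Csf1r, C1qb, Itgb2, Lcp1 and Cd53), against 5.74% of all genes tested. Without standard replicate 2 it was 4 (Cybb, Itgb2, Lcp1 and Cd53), against 5.48%. Leaving out any of the other 8 arrays gave Itgb2 alone. With the constant at the 25th percentile of the signals the count was 2 (Itgb2 and Cd53), against 5.45%, and with each array centred on its median it was 3 (Itgb2, Lcp1 and Cd53), against 7.34%. In none of these fits did a member pass after adjustment.

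**Figure D1:**
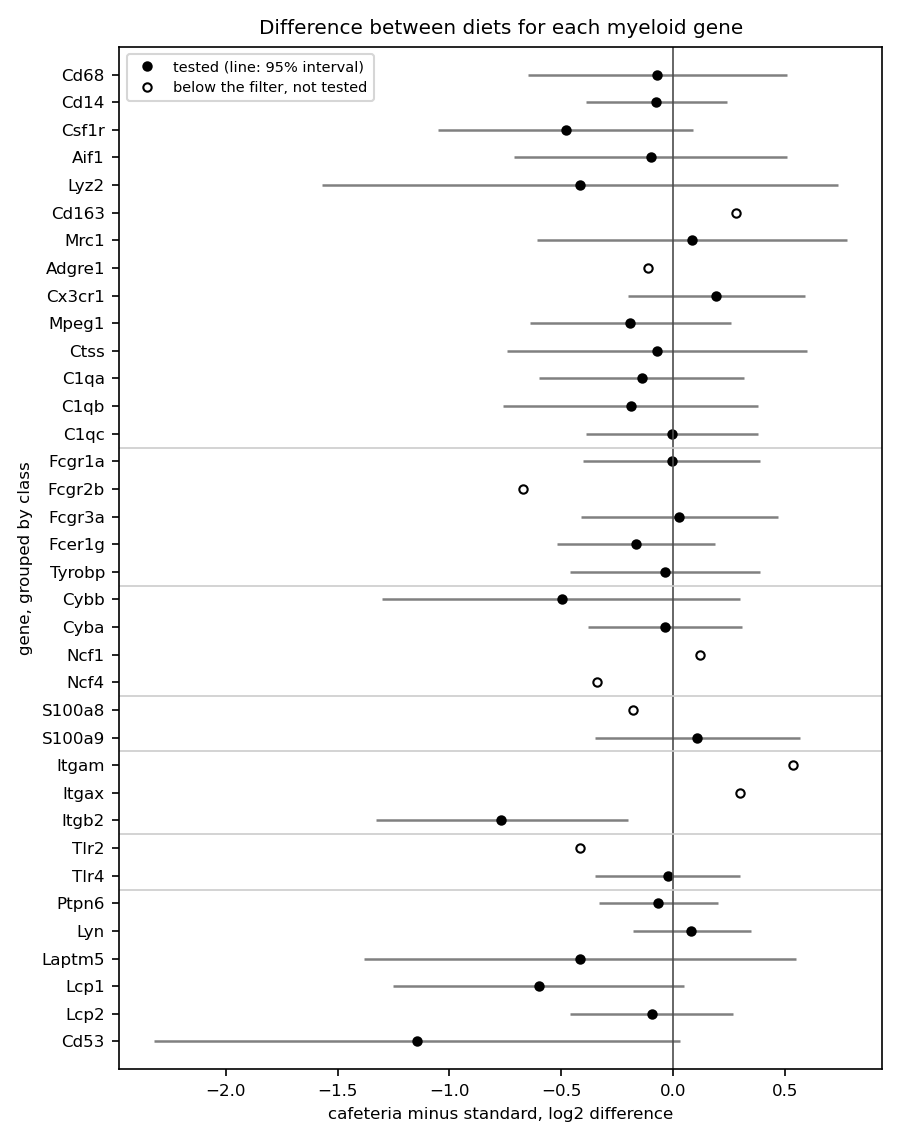
Difference between diets for each of the 36 myeloid genes (cafeteria minus standard, log2), grouped by class from resident macrophage genes at the top to shared blood cell regulators at the bottom. Filled points are the 27 tested genes with 95% confidence intervals, and open points are the 9 genes below the filter. The interval of Itgb2 (−1.33 to −0.20) is the one that leaves out 0; that of Cd53 runs from −2.32 to 0.03.

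Arrays of one diet lay further apart than the diets did. The median within-group SD was 0.471 (log2) over the 36 members, against 0.217 over all genes. The highest and lowest of the 10 arrays were more than 3-fold apart for 18 members. Cafeteria replicate 3 held the highest signal of 13 members and was among the top 3 arrays for 22. Standard replicate 5 held the highest signal of 11 members and was among the top 3 for 26. At the other end, cafeteria replicate 1 was lowest for 13 members, and it was among the bottom 3 arrays for 26. Standard replicate 2 was lowest for 7, and it was among the bottom 3 for 20. Each diet therefore had at least 1 array rich and at least 1 array poor in myeloid transcripts. Standard replicate 3 was also among the top 3 arrays for 16 members. The mean log2 signal of all 36 members was 7.12, 7.31, 7.97, 7.36 and 7.47 in cafeteria replicates 1 to 5, against 7.66, 7.20, 7.73, 7.48 and 7.94 in standard replicates 1 to 5. By this mean, standard replicates 1, 3 and 5 lay above every cafeteria array but replicate 3.

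**Figure D2:**
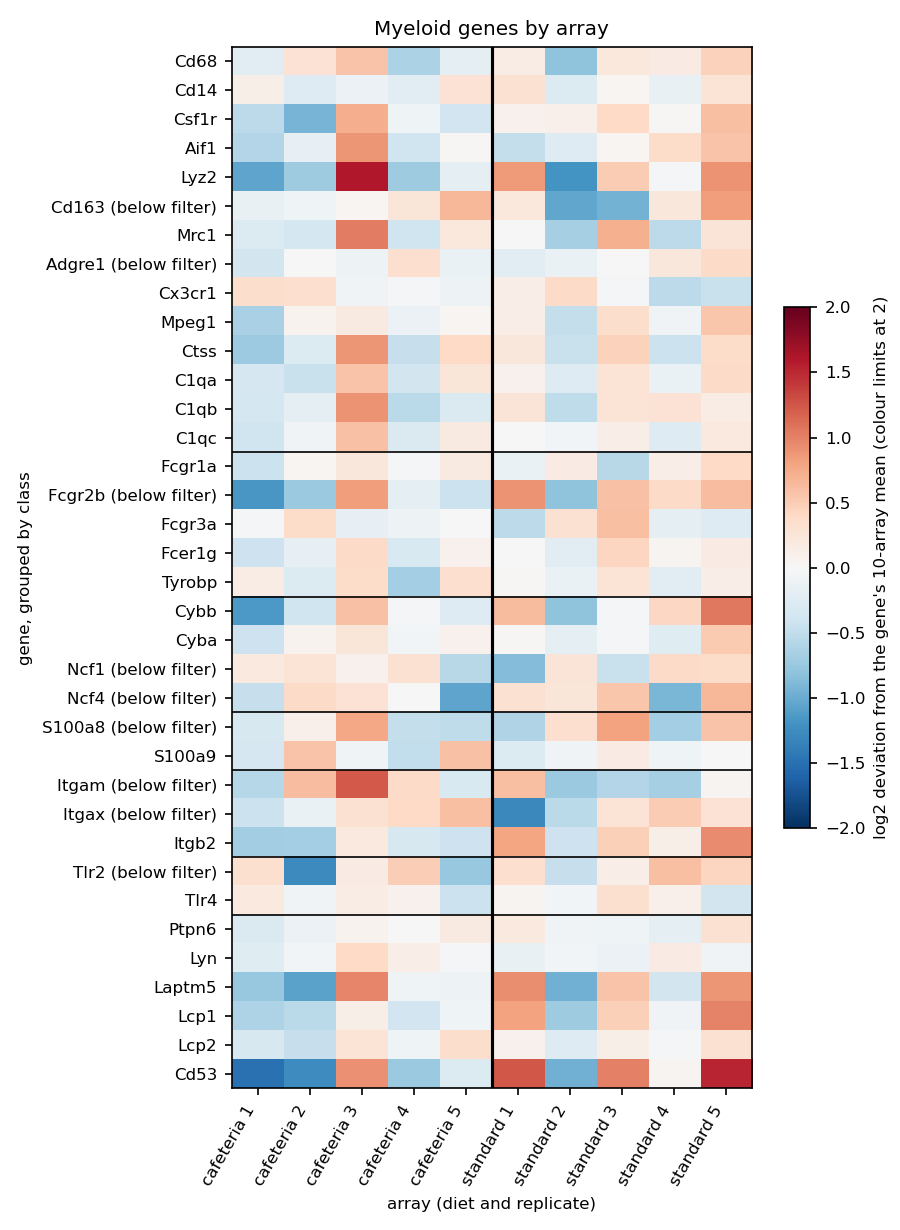
Log2 deviation of each myeloid gene from its own mean over the 10 arrays (colour), with cafeteria arrays on the left and standard arrays on the right; horizontal lines part the classes. Red cells gather in cafeteria replicate 3 and standard replicate 5, and blue cells in cafeteria replicate 1 and standard replicate 2.

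Genes of resident macrophages and of uptake overlapped between the diets. Lower means in cafeteria islets were seen for 11 of the 14 measured members and higher means for 3, with a median difference of −0.088, and 0 of the 12 tested reached an unadjusted p under 0.05. The class mean per array (log2) was 7.56 to 8.47 in cafeteria arrays and 7.53 to 8.32 in standard arrays. Without cafeteria replicate 3 the class median was −0.24, and without standard replicate 2 it was −0.18.

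Csf1r, the receptor for the growth factor that maintains macrophages, had the largest negative difference of this class. Its signals were 207, 152, 512, 287 and 229 in cafeteria replicates 1 to 5, against 323, 326, 406, 309 and 467 in standard replicates 1 to 5. All cafeteria arrays but replicate 3 lay below the lowest standard array, and replicate 3 was the highest of the 10. The difference was −0.48 (SE 0.26, adjusted p = 0.524). Leaving out cafeteria replicate 3 gave −0.72 (limma unadjusted p = 0.00237, adjusted p = 0.415). Leaving out cafeteria replicate 2 instead gave −0.307 (limma unadjusted p = 0.228, adjusted p = 0.656).

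Lyz2, which encodes the lysozyme of macrophages and neutrophils, had signals of 1377, 1747, 8746, 1748 and 2534 in cafeteria replicates 1 to 5, against 5199.6, 1240.3, 4062, 2819 and 5363 in standard replicates 1 to 5. Its highest array was 7.05-fold above its lowest, a range exceeded among the tested members by Cd53 alone (8.68-fold). The groups interleaved, with the highest value in a cafeteria array and the lowest in a standard array. The difference was −0.41 (SE 0.52, adjusted p = 0.789).

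The 3 chains of C1q, the complement protein that tags debris for uptake, are made in tissues mostly by macrophages. C1qa had signals of 458, 422, 865, 445 and 691 in cafeteria replicates 1 to 5, against 617, 482, 703, 530.3 and 764 in standard replicates 1 to 5. C1qb had 144, 164, 362, 125 and 151 in the cafeteria arrays, against 228, 128, 231, 233 and 211 in the standard arrays. C1qc had 214, 273, 440.2, 234 and 327 in the cafeteria arrays, against 287, 279, 317, 239 and 333 in the standard arrays. All 3 were highest in cafeteria replicate 3, and the remaining cafeteria arrays overlapped the standard ones. Their differences were −0.14 (SE 0.21, adjusted p = 0.828) for C1qa, −0.19 (SE 0.26, adjusted p = 0.809) for C1qb and −0.005 (SE 0.17, adjusted p = 0.995) for C1qc.

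Cd68, a lysosomal membrane protein used as a macrophage marker, had signals of 110.4, 164, 200.1, 79.4 and 114 in cafeteria replicates 1 to 5, against 146, 68.8, 153, 149 and 185 in standard replicates 1 to 5. The lowest was in standard replicate 2, and the groups covered nearly the same range, with a difference of −0.070 (SE 0.26, adjusted p = 0.934). Ctss, the lysosomal protease cathepsin S, had 340.4, 471, 1058, 412 and 753 in the cafeteria arrays, against 668, 416, 792, 418 and 738 in the standard arrays. Its group means were 607 ± 297 in cafeteria islets and 606 ± 178 in standard islets (SD, n = 5 each), with a difference of −0.070 (SE 0.30, adjusted p = 0.946). Ctss was highest in cafeteria replicate 3, as the C1q chains were.

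The scavenger receptor gene Cd163 was dim, at 29.6, 31.7, 35.7, 43.1 and 63.1 in cafeteria replicates 1 to 5, against 42.2, 9.4, 11.2, 43.0 and 72.3 in standard replicates 1 to 5. It lay below the filter and was not tested, and Adgre1, which encodes the macrophage surface protein known in mouse as F4/80, was below it too (37.4 to 69.3 in cafeteria islets and 42.8 to 72.4 in standard islets). Mrc1, the mannose receptor of tissue macrophages, ran from 83.7 to 247 in cafeteria islets and 67.0 to 196 in standard islets with a difference of 0.084 (SE 0.32, adjusted p = 0.934). Cx3cr1, the fractalkine receptor, ran from 117 to 165 in cafeteria islets and 83.4 to 169 in standard islets and differed by 0.19 (SE 0.18, adjusted p = 0.71). Cd163, Mrc1 and Cx3cr1 were the members of the class with a higher mean in cafeteria islets. The remaining members were Cd14, a co-receptor for bacterial lipopolysaccharide, at −0.077 (SE 0.14, adjusted p = 0.866), Aif1, an actin-binding protein of macrophages and microglia, at −0.10 (SE 0.28, adjusted p = 0.911), and Mpeg1, a pore-forming protein of phagocytes, at −0.19 (SE 0.20, adjusted p = 0.746). Cd14 was among the steadiest members, with a 1.52-fold range over the 10 arrays.

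Fc receptors bind antibody-coated particles, and Fcer1g and Tyrobp are adaptor chains through which some of these or related receptors signal. Of 5 members, 4 were lower and 1 higher, with a median of −0.035, and 0 of the 4 tested reached an unadjusted p under 0.05. Fcer1g had signals of 399, 472, 699.7, 430.4 and 565 in cafeteria replicates 1 to 5, against 532, 453, 725, 553 and 598 in standard replicates 1 to 5. Tyrobp had 176, 128, 206, 92.8 and 202 in the cafeteria arrays, against 160.2, 142, 192, 133 and 173 in the standard arrays. Both adaptors overlapped between the diets, with differences of −0.17 (SE 0.16, adjusted p = 0.725) for Fcer1g and −0.035 (SE 0.19, adjusted p = 0.957) for Tyrobp. Among the receptors, Fcgr1a differed by −0.002 (SE 0.18, adjusted p = 0.999) and Fcgr3a by 0.029 (SE 0.20, adjusted p = 0.969). Fcgr2b, the inhibitory receptor that B cells also carry, had signals of 23.6, 36.3, 138, 60.3 and 48.9 in the cafeteria arrays, against 144, 34.1, 113, 96.1 and 116 in the standard arrays. It lay below the filter, and its difference of −0.67 was not tested; its 4 highest arrays were cafeteria replicate 3 and standard replicates 1, 3 and 5.

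The phagocyte oxidase makes superoxide from a membrane pair, Cybb and Cyba, and cytosolic subunits that include Ncf1 and Ncf4. Of 4 members, 3 were lower and 1 higher, with a median of −0.19, and 0 of the 2 tested reached an unadjusted p under 0.05. Cybb had signals of 159.7, 279, 565, 364 and 310.1 in cafeteria replicates 1 to 5, against 584, 206, 364, 498 and 784 in standard replicates 1 to 5. The lowest value was in cafeteria replicate 1 and the highest in standard replicate 5, and the groups overlapped. Its difference was −0.50 (SE 0.36, adjusted p = 0.632), and −0.76 (limma unadjusted p = 0.037, adjusted p = 0.432) without standard replicate 2. Without cafeteria replicate 1 it was −0.272 (limma unadjusted p = 0.45, adjusted p = 0.792). Cyba, its partner, ran from 208 to 334 in cafeteria islets and 236 to 408 in standard islets and differed by −0.035 (SE 0.16, adjusted p = 0.949). Ncf1 (22.3 to 52.3 in cafeteria islets and 15.3 to 55.8 in standard islets) and Ncf4 (17.9 to 72.0 in cafeteria islets and 21.2 to 90.8 in standard islets) lay below the filter and were not tested.

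Of the 2 neutrophil-type genes, 1 was dim and 1 passed the filter. S100a8, which forms the calcium-binding calprotectin complex with S100a9, had signals of 8.1, 15.6, 33.4, 5.7 and 5.3 in cafeteria replicates 1 to 5, against 4.2, 21.0, 34.5, 3.1 and 27.2 in standard replicates 1 to 5. None of these exceeded 34.5, and the gene lay far below the filter. S100a9 had 79.9, 164, 99.9, 71.0 and 165 in the cafeteria arrays, against 85.0, 99.7, 119, 98.0 and 104 in the standard arrays. It passed the filter and differed by 0.11 (SE 0.21, adjusted p = 0.871), with 2 cafeteria arrays above and 2 below every standard array. Of the 7 measured genes in a separate neutrophil list (which holds granule and receptor genes such as Camp, Mmp8 and Cxcr2), 0 passed the filter.

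Itgb2 encodes the beta chain shared by the leukocyte integrins, and Itgam and Itgax encode alpha chains of macrophages, neutrophils and dendritic cells. Itgb2 had signals of 85.0, 86.2, 171, 114 and 107 in cafeteria replicates 1 to 5, against 264, 107, 211, 161 and 295 in standard replicates 1 to 5. Standard replicates 1, 3 and 5 lay above all cafeteria arrays, while standard replicates 2 and 4 fell inside the cafeteria range. Its means were 113 ± 35.0 in cafeteria islets and 208 ± 76.2 in standard islets (SD, n = 5 each), a 1.70-fold lower level in cafeteria islets on the log2(signal + 14.2) scale. The difference of −0.77 (SE 0.26, 95% confidence interval −1.33 to −0.20) had a limma unadjusted p of 0.0122 and an adjusted p of 0.412. Itgam was dim, at 11.3, 44.3, 75.0, 35.1 and 16.5 in the cafeteria arrays, against 43.4, 8.4, 11.1, 9.8 and 25.3 in the standard arrays. Both alpha chains lay below the filter, with untested differences of 0.54 for Itgam and 0.30 for Itgax (31.2 to 78.6 in cafeteria islets and 10.9 to 72.5 in standard islets). The alpha chains thus had higher means in cafeteria islets where the beta chain had a lower one.

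The toll-like receptors sense microbial products, Tlr4 with Cd14 as its helper. Tlr4 had signals of 123, 100.1, 118, 113 and 74.9 in cafeteria replicates 1 to 5, against 110.3, 101, 136, 114 and 78.1 in standard replicates 1 to 5. The groups covered nearly the same range, with a difference of −0.023 (SE 0.15, adjusted p = 0.966). Tlr2, a receptor for bacterial lipoproteins, ran from 13.9 to 81.4 in cafeteria islets and 35.2 to 88.5 in standard islets, lay below the filter and was not tested (difference −0.42).

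The regulators that macrophages share with other blood cells held the largest tested difference, that of Cd53. Of 6 measured members, all of them tested, 5 were lower and 1 higher, with a median of −0.25, and 0 reached an unadjusted p under 0.05. Cd53, a tetraspanin of white blood cells, had signals of 159, 189, 905, 276 and 389 in cafeteria replicates 1 to 5, against 1141, 235, 962, 493 and 1384 in standard replicates 1 to 5. Standard replicates 1, 3 and 5 lay above every cafeteria array, and standard replicate 2 lay among the low cafeteria arrays. Cd53 means were 384 ± 305 in cafeteria islets and 843 ± 471 in standard islets (SD, n = 5 each), a 2.21-fold lower level in cafeteria islets on the log2 scale used (95% confidence interval of the log2 difference −2.32 to 0.03). The difference was −1.14 (SE 0.53, adjusted p = 0.48). Leaving out cafeteria replicate 3 gave −1.52 (adjusted p = 0.415), and leaving out standard replicate 2 gave −1.53 (adjusted p = 0.364). Other single arrays left out gave smaller differences, such as −0.915 without cafeteria replicate 1 (adjusted p = 0.563) and −0.976 without standard replicate 1 (adjusted p = 0.664).

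Lcp1, the actin-bundling protein L-plastin, had signals of 307, 327, 523, 364 and 453 in cafeteria replicates 1 to 5, against 847, 288, 676, 455 and 969 in standard replicates 1 to 5. The same 3 standard arrays exceeded all cafeteria arrays. Its difference was −0.60 (SE 0.29, adjusted p = 0.496). Laptm5, a lysosomal protein that limits receptor signalling, had 123, 96.4, 444, 203 and 202 in the cafeteria arrays, against 428, 104, 329, 166 and 413 in the standard arrays. Here cafeteria replicate 3 was the highest of the 10, and the difference was −0.41 (SE 0.44, adjusted p = 0.746).

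The other 3 regulators had smaller differences. Ptpn6, a phosphatase that restrains immune receptor signalling, had signals of 647, 732, 838, 789 and 898 in cafeteria replicates 1 to 5, against 911, 756, 749, 699 and 990.2 in standard replicates 1 to 5. Its difference was −0.068 (SE 0.12, adjusted p = 0.86), and its 1.53-fold range was narrow. Lyn, a Src-family kinase, differed by 0.083 (SE 0.12, adjusted p = 0.822), and Lcp2, an adaptor of T cell and Fc receptor signalling, by −0.094 (SE 0.17, adjusted p = 0.861).

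**Figure D3:**
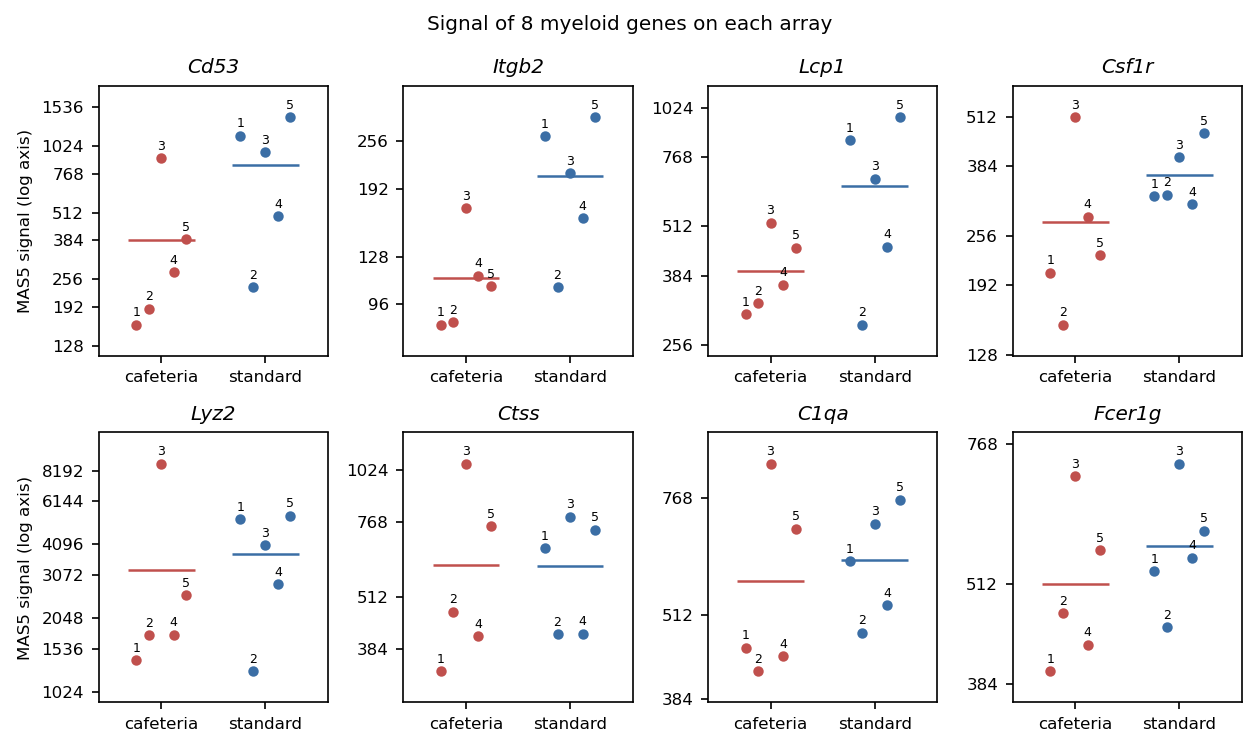
MAS5 signal of 8 myeloid genes (log axis, each panel with its own scale), cafeteria arrays in red on the left and standard arrays in blue on the right. Numbers are replicates and horizontal lines are group means; in Cd53, Itgb2 and Lcp1, standard replicates 1, 3 and 5 lie above all cafeteria arrays, while in Lyz2, Ctss and C1qa cafeteria replicate 3 is the highest of all.

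PU.1, the product of Spi1, is known to drive many of these genes by binding purine-rich sites near their start. A short form of its site was sought in the promoters of the members. The letters searched were GAGGAAGT and their reverse complement ACTTCCTC, on both strands, in windows from 250 bases before to 50 after the start in RefSeq promoters (GRCr8). Windows were at hand for 24 of the 38 genes. The motif was in 3 of them (12.5%), Cd53, Ctss and Fcgr3a, compared with 2.42% of all 33469 windows. Each stretch below is shown 5′ to 3′ on the strand of its gene, with the motif in capitals, and lies before the start of transcription.
Cd53: tactcagtctcACTTCCTCactcttctcac
Ctss: aatgaaagttcACTTCCTCgttgtggat
Fcgr3a: aaaagctatttACTTCCTCtcttctagcca
The stretch of Cd53 is at chr2:197087924-197087953 on the minus strand, that of Ctss at chr2:185775368-185775395 on the plus strand and that of Fcgr3a at chr13:85782569-85782598 on the plus strand. The motif starts 46, 17 and 56 bases before the start of Cd53, Ctss and Fcgr3a. These 3 genes differed by −1.14, −0.070 and 0.029 between the diets. Spi1 was not measured, and a link between the motif and the signals was not tested.

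More than 1 probeset represented 7 members. In 5 of these 7 all probesets had the same direction. For Cybb the second probeset gave −0.35 (SE 0.34), for Laptm5 −0.63 (SE 0.35) and for Lcp2 −0.22 (SE 0.23). The probesets of Lyn disagreed, with 0.083 (SE 0.12) from the brightest and −0.29 (SE 0.21) from the other. Mpeg1 also had a second, dim probeset of the opposite direction (0.029, not tested).

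Other genes of the myeloid programme, listed separately, held no member past the test either. Of 38 measured genes, 22 were lower and 16 higher, with a median of −0.12, and 0 of the 20 tested reached an unadjusted p under 0.05 in either direction, while over all genes 51% were lower and 5.26% of those tested were lower past that p. The 4 lower genes with the lowest p were Cebpb, a transcription factor of macrophage activation, at −0.42 (SE 0.20), the small GTPase Rac2, which serves the phagocyte oxidase and is also found in lymphocytes, at −1.42 (SE 0.75), the lipid carrier Apoe at −0.49 (SE 0.34) and the receptor for dying cells Mertk at −0.18 (SE 0.15). The 4 higher ones were Csf2ra, a growth factor receptor chain, at 0.29 (SE 0.17), the fungal sensor Clec7a at 0.18 (SE 0.18), and the Csf1r ligands Csf1 at 0.16 (SE 0.16) and Il34 at 0.13 (SE 0.14). Signals of Csf1 were 676 ± 145 in cafeteria islets and 602 ± 107 in standard islets (SD, n = 5 each). Neither ligand of Csf1r passed the test.

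Markers of lymphocytes and of all white blood cells were high in the same arrays as the shared regulators. Of 9 pan-leukocyte genes, 8 were lower, with a median of −0.71, and 1 of the 7 tested had an unadjusted p under 0.05. It was Rhoh, a GTPase of blood cells, at −1.07 (SE 0.40, limma adjusted p = 0.422). Ptprc, the common leukocyte antigen, differed by −1.22 (SE 0.57), the actin-binding Coro1a by −1.19 (SE 0.66) and the tetraspanin Cd37 by −0.89 (SE 0.44). The mean of 23 T, NK, B and plasma cell genes was 6.34, 6.20, 7.26, 6.20 and 6.14 (log2) in cafeteria replicates 1 to 5, against 7.38, 6.02, 7.43, 6.39 and 7.61 in standard replicates 1 to 5. It was high in cafeteria replicate 3 and standard replicates 1, 3 and 5, the arrays in which Cd53, Fcgr2b and Lcp1 were highest. The resident macrophage class mean was highest in these arrays too, at 8.47 in cafeteria replicate 3 and 8.05, 8.10 and 8.32 in standard replicates 1, 3 and 5. Cafeteria replicate 5 came next, at 7.98. Of these 23 genes, 19 were lower and 4 higher in cafeteria islets, and 4 of the 10 tested were lower at an unadjusted p under 0.05. The shares over all genes were 51% lower at any size and, of genes tested, 5.26% lower past that p. The 4 that were lower past that p were named after their values were seen. They were Cd5 (limma adjusted p = 0.452), Tcf7 (0.46), Cd247 (0.464) and Ms4a1 (0.46). Ms4a1, which marks B cells, differed by −1.81 (SE 0.78). The 4 higher genes all belonged to the T and NK cell list. They were Nkg7 at 0.081, Klrb1a at 0.074, Gzmb at 0.089 and Prf1 at 0.283, all below the filter and not tested. The B and plasma cell mean ran from 5.91 to 8.26 in cafeteria arrays and 6.28 to 8.15 in standard arrays, and the T and NK cell mean from 6.11 to 6.72 in cafeteria arrays and 5.89 to 7.31 in standard arrays.

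**Figure D4:**
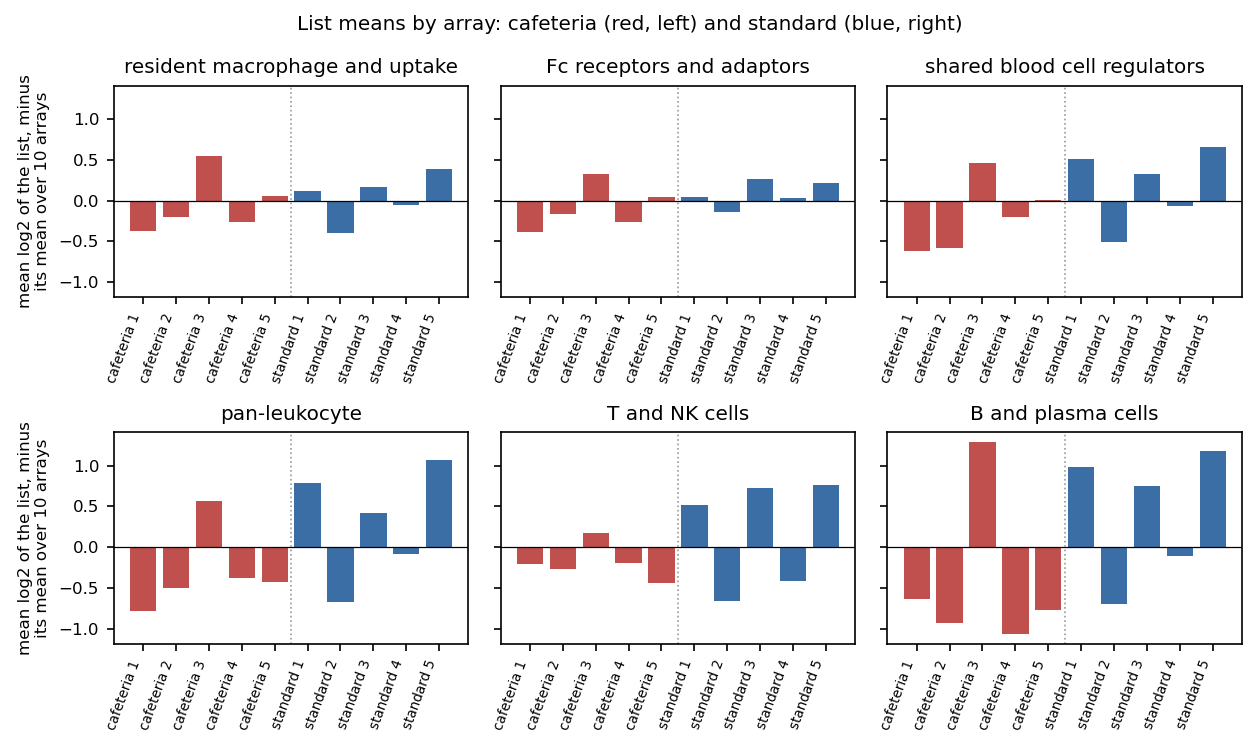
Mean log2 signal of 6 gene lists on each array, minus the list's mean over the 10 arrays, with cafeteria arrays in red on the left and standard arrays in blue on the right. All 6 lists are highest in cafeteria replicate 3 and standard replicates 1, 3 and 5. For the resident macrophage and Fc receptor lists, cafeteria replicate 5 comes close behind. The bars of the Fc receptor list are smaller.

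With the lymphocyte list mean as a covariate, 12 of the 36 myeloid genes were lower in cafeteria islets, against 49.9% of all genes, and the median difference was 0.069. Csf1r then differed by −0.20, Lcp1 by −0.175, Cd53 by −0.355 and Itgb2 by −0.39, of which Itgb2 kept an unadjusted p under 0.05 (limma unadjusted p = 0.0172, adjusted p = 0.673). In that fit 3.48% of genes tested were lower and 3.38% higher at an unadjusted p under 0.05. Mrc1 was then higher, at 0.53 (limma unadjusted p = 0.0243, adjusted p = 0.676). When the GAPDH ratio was the covariate, 15 of the 36 were lower, against 51.3% of all genes, and the median log2 difference over members was 0.026. No tested member then had an unadjusted p under 0.05, against 4.42% of genes tested that were lower and 4.44% that were higher. With this covariate Lcp1 differed by 0.004, Cd53 by −0.293 and Itgb2 by −0.391. Csf1r differed by −0.568 (limma unadjusted p = 0.174, adjusted p = 0.623), farther from 0 than its −0.48 without a covariate. In both fits most members were higher in cafeteria islets, though none past the adjusted threshold. Both covariates had lower means in cafeteria arrays: 6.43 against 6.97 for the lymphocyte list and 1.01 against 1.16 for the GAPDH ratio. In these fits diet and covariate cannot be fully told apart, so the changes of sign are a description.

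**Figure D5:**
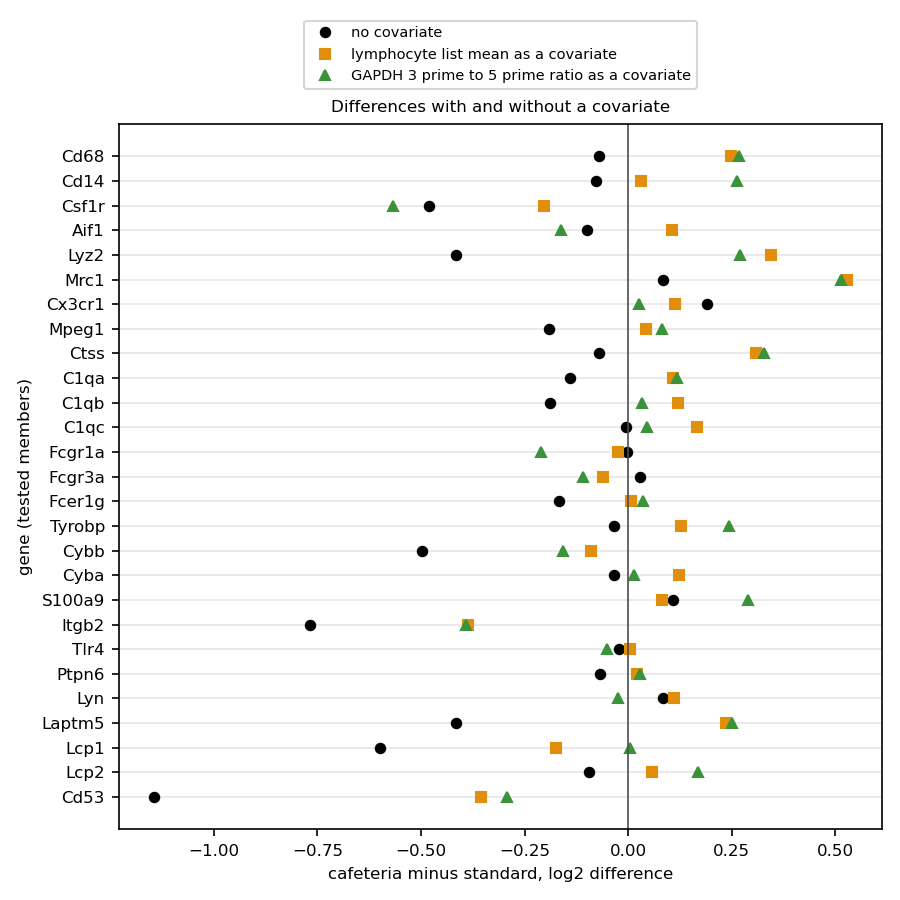
Difference between diets (cafeteria minus standard, log2) of the 27 tested myeloid genes without a covariate (black circles), with the lymphocyte list mean (orange squares) and with the GAPDH ratio (green triangles). Cd53, Itgb2, Lcp1 and Cybb lie nearer to 0 with either covariate, while Mrc1 lies farther above it. Both covariates had lower means in cafeteria arrays than in standard arrays.

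Markers of the other cell types that isolated islets can carry were also read on each array. The acinar list mean, for enzyme cells around the islets, was lowest in cafeteria replicate 3 (8.56) and highest in cafeteria replicate 4 (10.82). Cafeteria replicate 3 was rich in myeloid transcripts, with a member mean of 7.97, close to the 7.94 of standard replicate 5. It ran from 8.56 to 10.82 in cafeteria arrays and 9.52 to 10.76 in standard arrays. Standard replicate 5, also rich in myeloid transcripts, had the highest acinar mean of the standard arrays (10.76). In the arrays poor in myeloid transcripts, cafeteria replicate 1 and standard replicate 2, the acinar mean was 9.32 and 9.73. Endothelial (10.11 to 10.63 in cafeteria arrays and 10.21 to 10.56 in standard arrays) and stromal (9.59 to 9.97 in cafeteria arrays and 9.58 to 9.99 in standard arrays) means varied less. Dendritic cell genes, with 4 of 8 measured, were split 2 lower and 2 higher (median 0.20), and Batf3, a factor of dendritic cells named after its value was seen, gave 0.41 (limma unadjusted p = 0.0239, adjusted p = 0.436). Of 6 mast cell genes, 3 were lower and 3 higher (median 0.023), and the tryptase gene Tpsb2, also named after its value was seen, gave 0.51 (limma unadjusted p = 0.0324, adjusted p = 0.448).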

How the data were processed

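RNA of 10 islet samples was hybridised to 1-colour Affymetrix Rat Genome 230 2.0 arrays, 1 per sample. Intensity values were deposited as MAS5 signals made by the authors, per the submitters' processing notes, which give no version; from the values, each array was scaled to a common trimmed mean (500.1 to 500.2). No detection calls were used. The table held 31099 probesets, 57 of them controls; 20826 had 1 gene symbol in the platform annotation, 436 several and 9780 none, and all 36 members matched RefSeq by gene ID. Signals were analysed as log2(signal + 14.2), the constant being the 10th percentile, with limma 3.58.1 in R 4.3.3 (lmFit, eBayes). Probesets with a mean log2 above the 40th percentile were tested, and p-values were adjusted by Benjamini-Hochberg over all 18625. The linear model was tested on simulated data. Array number limits the precision.

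The 38 members and all lists were chosen with earlier results of these data known. All members are accounted for; values in every array are given for members with an unadjusted p under 0.05 and for the main genes of each class, and of the other myeloid and pan-leukocyte lists up to 4 genes per direction with the lowest p are named. Groups come from titles, source names and descriptions, 3 fields that name one diet; 1 field, the diet characteristic, names the opposite in all 10 samples. The alternatives were other pseudocounts, filters, scalings, probeset rules, covariates, a replicate block and leaving out each array. The numbers were not taken as pairs in the main fit. Correlations of same-numbered deviations were 0.003, 0.296, 0.251, −0.002 and 0.144, and 3 of 5 cafeteria arrays correlated best with the standard array of their own number. These values do not settle whether the numbers are pairs, and the count from the replicate block is given below. Promoter windows are from RefSeq (GRCr8).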

Additional observations from a re-analysis of the deposited data

Results flagged for a closer look

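In 6 of 90 sets of 5 arrays (36 members, 7 class means, the mean of all members and the GAPDH ratio, in each diet), 1 array stood apart from the other 4 of its diet by Dixon's test; about 4.5 such sets are expected by chance. Values here are log2(signal + 14.2). C1qb was highest in cafeteria replicate 3, at 8.56, while the other cafeteria arrays lay between 7.12 and 7.48. C1qb was lowest in standard replicate 2, at 7.15, while the other standard arrays lay between 7.82 and 7.95. Cd68 was lowest in that same array, at 6.38, against 7.32 to 7.64 in the other standard arrays. Ncf1 was lowest in cafeteria replicate 5, at 5.19, against 5.83 to 6.05 in the other cafeteria arrays. Ncf4 was lowest in standard replicate 4, at 5.15, against 6.30 to 6.71 in the other standard arrays; both are dim genes below the filter. The phagocyte oxidase mean was highest in standard replicate 5, at 7.80, against 7.03 to 7.17 in the other standard arrays.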

How the results depend on the processing

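Of 864 values of single genes under 24 other settings, 779 kept their sign and 85, in 24 genes, turned or were 0 at 3 decimals; 0 had a limma adjusted p under 0.05. The median over the members ran from −0.197 (without cafeteria replicate 3) to 0.069 (lymphocyte covariate). A pseudocount at the 25th percentile gave 2 members lower at an unadjusted p under 0.05, against 5.45% of genes tested, median centring 3, against 7.34%, and the replicate block 3 (Itgb2, Lcp1 and Cd53), against 5.7%; 3 of 5 cafeteria arrays correlated best with the standard array of their own number. With the filter at the 60th percentile Itgb2 was not tested, and Cd53 had a limma unadjusted p of 0.0478 (adjusted p = 0.377). With a pseudocount of 1 Fcgr1a gave 0, with quantile normalization Fcgr3a −0.024, with median centring Fcgr3a −0.009, and with array weights Tlr4 0.002. Lyn gave −0.103 from the mean of its probesets and −0.289 without suffixed probesets. The acinar covariate gave 1 probeset past the adjusted threshold (Amy2a3, itself an acinar gene; −0.889, limma adjusted p = 0.0486), Fcgr1a 0.024 and Fcgr3a −0.012.

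With the GAPDH covariate the median was 0.026, 15 members were lower and 0 had an unadjusted p under 0.05. It gave Cd68 0.268, Cd14 0.263, Lyz2 0.27, Mpeg1 0.082, Ctss 0.327, C1qa 0.117, C1qb 0.033, C1qc 0.045, Fcgr3a −0.108, Fcer1g 0.037, Tyrobp 0.244, Cyba 0.014, Ptpn6 0.028, Lyn −0.025, Laptm5 0.25, Lcp1 0.004, Lcp2 0.169 and Ncf1 −0.544. With the lymphocyte list mean the median was 0.069 and 12 members were lower. It gave Cd68 0.249, Cd14 0.03, Aif1 0.107, Lyz2 0.345, Mpeg1 0.043, Ctss 0.309, C1qa 0.109, C1qb 0.12, C1qc 0.167, Fcgr3a −0.061, Fcer1g 0.006, Tyrobp 0.127, Cyba 0.123, Tlr4 0.005, Ptpn6 0.021, Laptm5 0.235, Lcp2 0.057, Ncf1 −0.011 and S100a8 0.096.

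Leaving out each array in turn gave 0 to 1 probesets past the adjusted threshold (Emp1 without standard replicate 2, at 0.73, limma adjusted p = 0.0387) and 1 to 5 members lower at an unadjusted p under 0.05. Ranges were −0.28 to 0.079 for Cd68, −0.332 to 0.035 for Aif1, −0.16 to 0.272 for Mrc1, −0.298 to 0.102 for Ctss, −0.152 to 0.095 for C1qc, −0.142 to 0.104 for Fcgr1a, −0.1 to 0.182 for Fcgr3a, −0.13 to 0.13 for Tyrobp, −0.1 to 0.09 for Cyba, −0.025 to 0.244 for S100a9, −0.119 to 0.081 for Tlr4, −0.122 to 0.002 for Ptpn6, −0.008 to 0.153 for Lyn, −0.195 to 0.008 for Lcp2 and −0.258 to −0.174 for GAPDH, on the log2 scale, in the ratio of 3 prime to 5 prime control probesets. The cause of these changes was not tested. Ncf1 gave −0.08 without standard replicate 1, and S100a8 gave 0.003 without standard replicate 3. The 9 members below the filter were tested only in the fit with no filter, where their limma unadjusted p ran from 0.126 (Fcgr2b) to 0.666 (Ncf1).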
